A study of Mus musculus with 9 samples.

Results

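MicroRNAs (miRNAs) that have been reported to promote or restrain brown fat thermogenesis, browning of white fat or adipogenesis were examined across 3 mouse fat depots, brown (BAT), subcutaneous (SAT) and visceral (VAT) adipose tissue. They are 7 miRNAs, miR-455-3p, miR-455-5p, miR-32-5p, miR-328-3p, miR-34a-5p, miR-204-5p and miR-33-5p, taken by name from the 1251 miRNAs of the table. All 7 are in the table. Small RNA was sequenced from 9 libraries, 3 per depot, of C57BL/6J male mice that were 5 to 6 weeks old when a high fat diet (HFD) with 45% of energy from fat began. The mice ate the HFD for 11 weeks and were fasted for 4 hours before the tissues were taken. BAT was interscapular, SAT was inguinal and VAT was epididymal, and a library is named here by its depot and the number in its title (BAT 12, BAT 15, BAT 20, SAT 14, SAT 19, SAT 20, VAT 14, VAT 17 and VAT 20). All 9 libraries come from HFD mice, so the depots can be compared with each other but not with a lower fat diet. Each library was made from whole tissue, in which fewer cells of a type and less RNA per cell cannot be told apart.

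A miRNA guides the Argonaute complex to messenger RNAs that pair with its seed, the bases near its 5′ end, and lowers their translation and stability. Brown adipocytes burn fuel in mitochondria uncoupled by Ucp1, and white depots can gain similar cells, which is called browning. Among the miRNAs examined, miR-455, miR-32 and miR-328 have been reported to promote brown fat differentiation or thermogenesis. miR-34a has been reported to restrain browning through FGF21 receptor and Sirt1 signaling. miR-33, which lies in the sterol regulator gene Srebf2, represses cholesterol export through Abca1 and has been reported to restrain brown fat thermogenesis. miR-204 has been reported to favor adipogenesis over bone formation by acting on Runx2.

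The mature sequences are shown because a miRNA with the same seed can pair with the same targets, so a low member can stand beside an abundant relative. RefSeq on GRCm38.p6 gave the mature sequence of 6 of the 7 members, miR-328-3p being the other one. Each is written 5′ to 3′ with bases 2 to 8, the seed, in capitals.
miR-455-3p: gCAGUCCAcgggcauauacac
miR-455-5p: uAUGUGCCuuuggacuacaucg
miR-32-5p: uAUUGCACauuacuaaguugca
miR-34a-5p: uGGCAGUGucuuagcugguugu
miR-204-5p: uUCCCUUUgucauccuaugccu
miR-33-5p: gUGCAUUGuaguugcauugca
The 6 seeds differ from each other, and both arms of the miR-455 precursor have seeds of their own. Of these seeds, AUUGCAC of miR-32-5p is the one with relatives of high level in fat among miRNAs with a matched sequence. These relatives are printed with their values further on.

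The precursors lie in 6 places of the mouse genome (GRCm38). Mir455 is at chr4:63256851-63256932 on the plus strand in an intron of the collagen gene Col27a1. Mir32 is at chr4:56895229-56895298 on the minus strand in an intron of Tmem245. Mir33 is at chr15:82198122-82198190 on the plus strand in an intron of Srebf2, and Mir204 is at chr19:22750605-22750672 on the plus strand in an intron of the channel gene Trpm3. Each of these 4 has the strand of the gene around it. Mir34a, at chr4:150068454-150068555 on the plus strand, overlaps an exon of the unclassified transcript Gm37795, and Mir328, at chr8:105308364-105308460 on the minus strand, overlaps an exon of Elmo3, which runs on the opposite strand.

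The deposited values are on a log2 scale, and their lowest value of 3.32, the log2 of 10, occurs in every library. Of the 1251 miRNAs, 839 (67.1%) had it in all 9 libraries, and the table gives no read counts, so the depth behind a value is unknown. Between 255 and 273 miRNAs were above the lowest value in the BAT libraries, 240 to 285 in SAT and 323 to 349 in VAT. Some libraries carried miRNAs of other cells. The muscle miRNAs miR-206-3p and miR-1a-3p were at the lowest value in the 3 SAT libraries, BAT 12, VAT 14 and VAT 17. miR-206-3p reached 8.17 in BAT 15 and 8.23 in BAT 20, and miR-1a-3p reached 7.38 in BAT 20 and 3.83 in VAT 20. The epithelial miR-205-5p was 14.31 in SAT 14 and 10.02 in VAT 20, and the leukocyte miR-142-3p was 7.50 in SAT 20 and 4.02 to 4.97 in VAT. The myeloid miR-223-3p was not raised in SAT 20, where it was below its values of 9.27 in SAT 14 and 9.19 in SAT 19. Of 4 brown fat markers (miR-193b-3p, miR-365-3p and both arms of miR-378a), 3 were lower in SAT and VAT than in BAT. The exception was miR-365-3p, and the summed level of the 4 was 17.41 to 18.87 in BAT, 15.18 to 15.26 in SAT and 15.68 to 16.28 in VAT.

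Of the 7 miRNAs, 4 passed the filter, which asked for 3 or more of the 9 libraries to exceed the lowest value, and were tested among 343 miRNAs with limma. These 4 were above the lowest value in all 9 libraries. miR-455-3p and miR-328-3p, both reported promoters, were lower in the white depots than in BAT, miR-34a-5p, a reported brake, was higher, and miR-204-5p was at nearly the same level in all depots. miR-455-5p, miR-32-5p and miR-33-5p were at or next to the lowest value and could not be tested. At an adjusted p under 0.05, 3 of the 4 tested members differed in VAT/BAT, where 66.2% of the tested miRNAs did, 39.4% higher and 26.8% lower. Likewise 3 of 4 differed in SAT/BAT, where 40.5% of all tested miRNAs did, 22.4% higher and 18.1% lower. A test without moderation passed 2 of the 4, not 3, for each white depot against BAT. The member it lost was miR-34a-5p, whose adjusted p was then 0.0552 for VAT and 0.0784 for SAT. In VAT/SAT none of the 4 passed limma's adjusted p and 1 had an unadjusted p under 0.05. The test without moderation gave the same counts of 0 and 1 in VAT/SAT. The background there was 16% of the tested miRNAs, 8.45% higher and 7.58% lower. The VAT/BAT and SAT/BAT comparisons share the 3 BAT libraries.

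**Figure D1:**
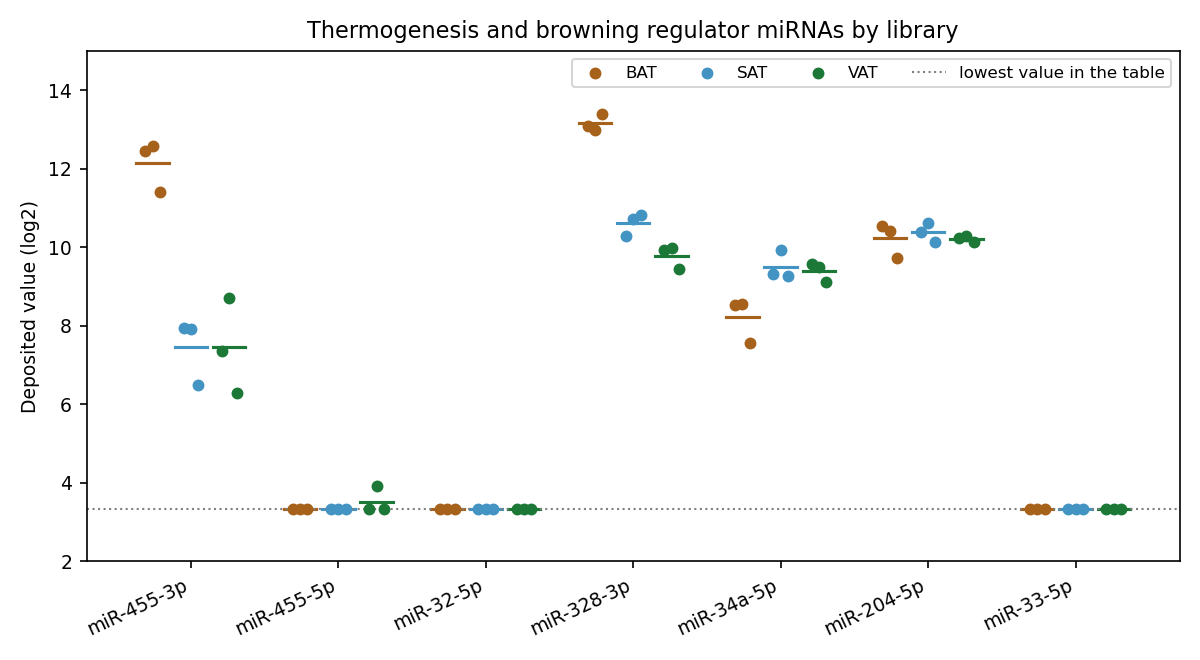
Deposited value (log2) of the 7 miRNAs in each of the 9 libraries, grouped by depot and shown in the order of the library numbers. Points are libraries, short lines are depot means, and the dotted line is the lowest value of the table, 3.32. The BAT points of miR-455-3p and miR-328-3p lie above all SAT and VAT points, those of miR-34a-5p lie below, and those of miR-204-5p overlap.

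miR-455-3p, the arm of miR-455 found in all 9 libraries, had the largest depot difference of the 4 tested members. Its values were 12.45 in BAT 12, 12.59 in BAT 15 and 11.40 in BAT 20. In SAT they were 7.94 in SAT 14, 7.92 in SAT 19 and 6.48 in SAT 20, and in VAT 7.35 in VAT 14, 8.70 in VAT 17 and 6.30 in VAT 20. The lowest BAT library thus stood above the highest library of either white depot, with no overlap. Libraries with no overlap were found for 72% of the tested miRNAs in VAT/BAT and 52.5% in SAT/BAT. By rank within the library, miR-455-3p was between place 44 and place 63 in BAT and between place 124 and place 205 in the white depots.

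The level of miR-455-3p was 25.9-fold lower in VAT than in BAT, a log2 difference of -4.70 with an SE of 0.66 (adjusted p = 0.00138 by limma with Benjamini-Hochberg adjustment). The difference in SAT/BAT was -4.70 as well, with an SE of 0.57 (adjusted p = 0.00352). In size these differences ranked 11 of 343 in VAT/BAT and 20 of 343 in SAT/BAT. The white depots had almost the same mean, 7.45 ± 0.84 (SD, n = 3) in SAT and 7.45 ± 1.20 (SD, n = 3) in VAT. The VAT/SAT difference of 0.00 nevertheless has a 95% interval of -1.97 to 1.97. The libraries of a white depot differed widely, over 2.40 on the log2 scale in VAT, a wider range than that of 332 of the 343 tested miRNAs in this depot.

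BAT 12, the BAT library with the least muscle miRNA, had a miR-455-3p value of 12.45, close to the 12.59 of BAT 15 and above the 11.40 of BAT 20. Both differences of miR-455-3p from BAT held without each library in turn. With BAT 12 as the only BAT library, after BAT 15, BAT 20 and VAT 20 were left out, the differences were -4.43 in VAT/BAT (adjusted p = 0.0883) and -5.00 in SAT/BAT (adjusted p = 0.0557). Without SAT 14 and SAT 20 the SAT/BAT difference was -4.22 (adjusted p = 0.0679). Over 18 alternatives each, the adjusted p ran from 0.000759 to 0.0883 in VAT/BAT and from 0.000429 to 0.0679 in SAT/BAT.

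The opposite arm, miR-455-5p, did not follow this depot order. It was at the lowest value in 8 libraries, the BAT libraries among them, and at 3.92 in VAT 17, the white fat library with the highest miR-455-3p. Within BAT the value of the 3p arm was 8.07 to 9.27 (log2) above the lowest value that the 5p arm shared. In VAT 17 the arms differed by 4.78. VAT 17 had 323 miRNAs above the lowest value, against 255 to 273 in the BAT libraries, and the part of this in the value of 3.92 was not tested. miR-5129-3p, the other miRNA of the table with the seed of miR-455-5p, was at 3.38 in VAT 14 and at the lowest value in the other 8 libraries.

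miR-328-3p, reported to promote brown adipocyte differentiation, was the most abundant of the members in BAT, with ranks of 35 to 39. In SAT 14 and the 3 VAT libraries miR-204-5p was above it. Its values were 13.09 in BAT 12, 12.98 in BAT 15 and 13.40 in BAT 20. SAT 14 had 10.29, SAT 19 had 10.70 and SAT 20 had 10.82. The VAT values were lower again, at 9.93 in VAT 14, 9.97 in VAT 17 and 9.45 in VAT 20. The depots followed each other in the order BAT, SAT and VAT without any overlap.

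In VAT the level of miR-328-3p was 10.3-fold lower than in BAT, a log2 difference of -3.37 with an SE of 0.26 (limma, adjusted p = 0.000207). In SAT it was 5.86-fold lower, a difference of -2.55 with an SE of 0.20 (limma, adjusted p = 0.000766). Both calls held in all 18 alternatives tried for each. Some of these left out libraries that carried muscle, epithelial or leukocyte miRNAs, but none left out all such libraries of a comparison. Between VAT and SAT the difference was -0.82, or 1.77-fold, with a 95% interval of -1.39 to -0.25. It had an unadjusted p of 0.0141 and did not pass after adjustment (limma, adjusted p = 0.069), although the libraries did not overlap, as for 39.4% of the tested miRNAs in VAT/SAT. When the 171 tested miRNAs with the higher mean were fitted, it passed (adjusted p = 0.0382), and over 17 alternatives the adjusted p ran from 0.0382 to 0.396. The last step of the order BAT, SAT, VAT therefore rests on the set of miRNAs tested.

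**Figure D2:**
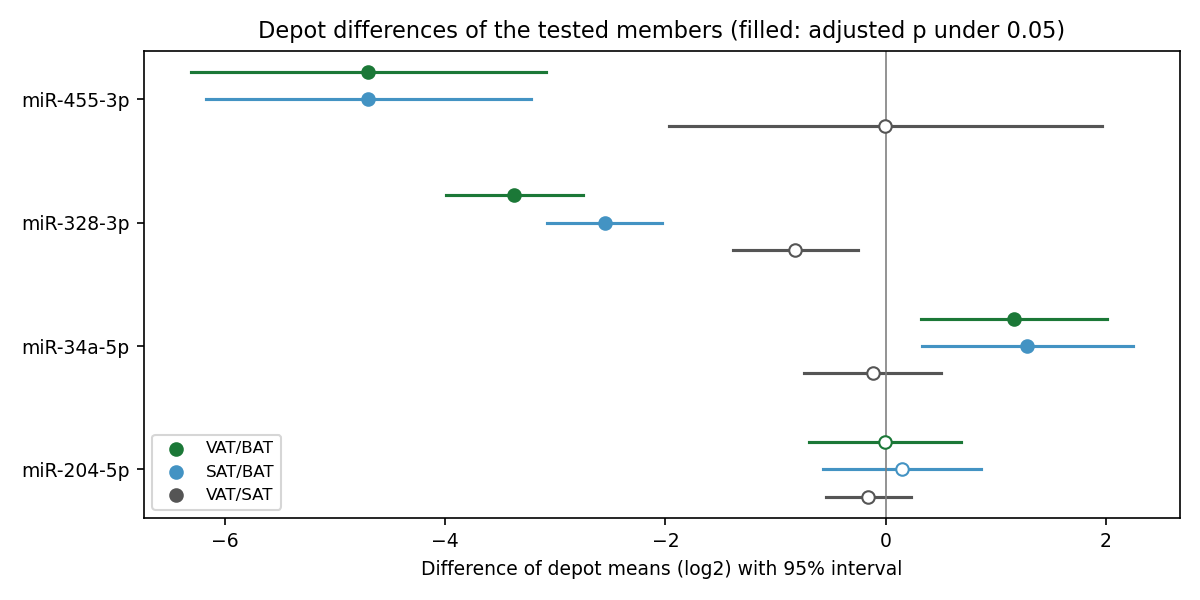
Difference of the depot means (log2) of the 4 tested members in VAT/BAT, SAT/BAT and VAT/SAT, with the 95% interval of limma as a line. Filled points passed an adjusted p of 0.05. miR-455-3p and miR-328-3p lie left of 0 in both comparisons with BAT and miR-34a-5p lies right of 0, while no VAT/SAT point is filled.

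miR-32-5p, which has been reported to raise thermogenesis in brown fat through Tob1, was at the lowest value in all 9 libraries, and so was its opposite arm miR-32-3p. The table holds 5 other miRNAs with its seed AUUGCAC, and their sequences differ from it mostly after that seed.
miR-32-5p: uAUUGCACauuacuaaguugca
miR-92a-3p: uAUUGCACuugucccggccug
miR-92b-3p: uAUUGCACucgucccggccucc
miR-25-3p: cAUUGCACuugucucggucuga
miR-363-3p: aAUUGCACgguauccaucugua
miR-367-3p: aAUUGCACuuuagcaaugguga
Over the 21 or 22 bases compared from the 5′ end, miR-32-5p has 11 bases in common with miR-92a-3p, 11 with miR-92b-3p and 13 with miR-25-3p. miR-92a-3p and miR-92b-3p share 19 of 21 bases, so reads shared between near-identical miRNAs could affect the value of miR-92b-3p, the far less abundant of the pair.

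This seed was therefore abundant in fat without miR-32-5p, and its carriers differed between depots in opposite directions. miR-92a-3p, a product of the miR-17-92 cluster and of its paralog on the X chromosome, was at 15.87 in BAT 12, 15.70 in BAT 15 and 16.02 in BAT 20. It was at 14.88 in SAT 14 and SAT 19 and 15.87 in SAT 20, and at 14.41, 14.75 and 14.18 in VAT 14, VAT 17 and VAT 20. The VAT libraries lay below all BAT libraries, and SAT 20, the SAT library with miR-142-3p above the lowest value, reached the BAT range. miR-92a-3p was 2.67-fold lower in VAT than in BAT (log2 difference -1.42, SE 0.25, limma adjusted p = 0.003). In SAT/BAT the difference was -0.65 (limma adjusted p = 0.166), and without SAT 20 it passed the threshold (adjusted p = 0.0136).

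miR-92b-3p had BAT values of 9.05, 9.18 and 9.39, SAT values of 7.11, 6.52 and 7.64 and VAT values of 7.54, 7.32 and 7.26, in the order of the library numbers. It was lower than in BAT in both white depots, by -1.84 in VAT (limma adjusted p = 0.000703) and -2.12 in SAT (adjusted p = 0.00617), with no overlap. miR-25-3p, from the miR-106b-25 cluster, went the other way. Its BAT values were 12.20, 12.34 and 11.40, its SAT values 13.09, 13.32 and 13.40 and its VAT values 12.81, 13.18 and 12.81. It was higher in VAT than in BAT by 0.96 (limma adjusted p = 0.0386) and in SAT by 1.29 (adjusted p = 0.0222). The VAT/BAT call of miR-25-3p was lost without BAT 12, VAT 14, VAT 17 or VAT 20, and the SAT/BAT call without BAT 12, SAT 14, SAT 19 or SAT 20, with adjusted p up to 0.241 over all alternatives. miR-363-3p was above the lowest value only in VAT 14, at 3.83, and miR-367-3p in no library. Summed over the 6 carriers, after the lowest value was taken off each, the seed stood at 15.84 to 16.09 in BAT, 15.25 to 16.11 in SAT and 14.66 to 15.17 in VAT on the log2 scale. SAT overlapped BAT and VAT was below both.

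**Figure D3:**
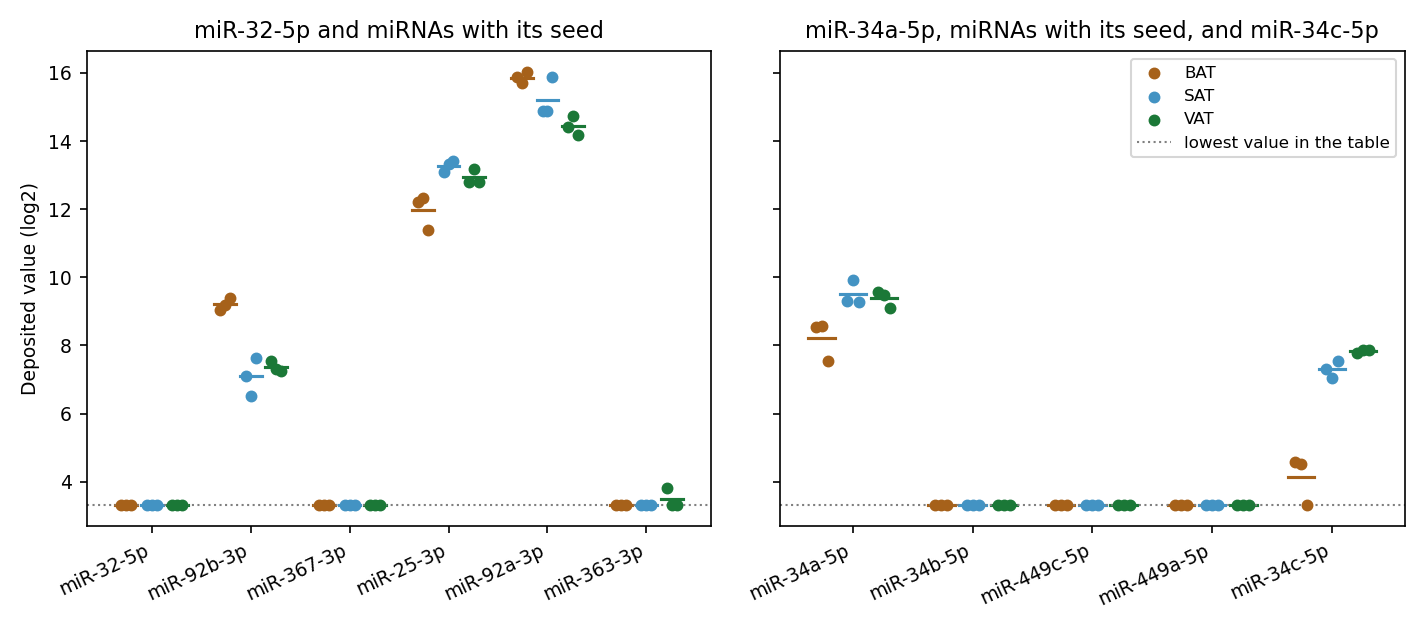
Deposited value (log2) by library of miR-32-5p and the miRNAs with its seed (left), and of miR-34a-5p, the miRNAs that matched its seed and miR-34c-5p (right). Points are libraries in the order of their numbers, short lines depot means, and the dotted line the lowest value. miR-32-5p lies on the dotted line in all 9 libraries while miR-92a-3p and miR-25-3p lie above 11, and on the right miR-34a-5p and miR-34c-5p, the latter not compared by sequence, are above the line.

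miR-34a-5p, the reported brake on browning, was higher in both white depots than in BAT. Its values were 8.53 in BAT 12, 8.56 in BAT 15 and 7.55 in BAT 20. The SAT values were 9.31 in SAT 14, 9.93 in SAT 19 and 9.27 in SAT 20, and the VAT values 9.57 in VAT 14, 9.49 in VAT 17 and 9.10 in VAT 20. Every white fat library was above every BAT library, and the ranges of SAT and VAT overlapped. BAT 20 had the lowest value and was also the library with the most muscle miRNA.

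In VAT the level of miR-34a-5p was 2.25-fold higher than in BAT, a log2 difference of 1.17 with an SE of 0.35 and a 95% interval of 0.33 to 2.01 (limma, adjusted p = 0.0262). Without BAT 20 the difference was 0.84 and passed (adjusted p = 0.0223), but it did not pass without VAT 14 (adjusted p = 0.0831) or VAT 17 (adjusted p = 0.08). Over 18 alternatives the call was lost in 5, and the adjusted p ran from 0.00929 to 0.192. In SAT the level was 2.44-fold higher, a difference of 1.29 with an SE of 0.37 and an interval of 0.33 to 2.24 (limma, adjusted p = 0.0467). This call was lost in 13 of 18 alternatives, among them the removal of any single library (BAT 12, BAT 15, BAT 20, SAT 14, SAT 19 or SAT 20) and scaling to miR-191-5p, with adjusted p from 0.0223 to 0.273. The difference remained positive in all of them, from 0.96 to 1.71. VAT and SAT differed by -0.12 (interval -0.74 to 0.50, limma adjusted p = 0.775).

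The seed GGCAGUG of miR-34a-5p is shared by miR-34b-5p, miR-449a-5p and miR-449c-5p, which were at the lowest value in all 9 libraries. They are shown beside miR-34a-5p as the other miRNAs that matched its seed among those compared by sequence.
miR-34a-5p: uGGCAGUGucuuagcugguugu
miR-34b-5p: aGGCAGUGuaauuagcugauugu
miR-449a-5p: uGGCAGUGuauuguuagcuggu
miR-449c-5p: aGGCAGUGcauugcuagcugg
miR-34c-5p, of the same family, was not compared by sequence here and was added after its values were seen. It was at 4.57 in BAT 12, 4.51 in BAT 15 and the lowest value in BAT 20. Its SAT values were 7.32, 7.04 and 7.54 and its VAT values 7.77, 7.85 and 7.85. All white fat libraries were thus well above the BAT libraries, as for miR-34a-5p but by a larger difference, 3.69 in VAT and 3.17 in SAT. No test of miR-34c-5p is given, because it was picked with its values known. Whether the differences of miR-34a-5p and miR-34c-5p differ in size was not tested. On the log2 scale miR-34c-5p was below miR-34a-5p in each library.

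miR-33-5p, the second reported brake, was at the lowest value in all 9 libraries, and so was its opposite arm miR-33-3p. No other miRNA of the table with a matched sequence carries its seed UGCAUUG. The lowest value does not separate a miRNA that is absent from one below the authors' threshold, so no limit on its level can be given. The opposite arms of the other members (miR-328-5p, miR-34a-3p and miR-204-3p) were also at the lowest value in all 9 libraries. Each of the 5 precursors other than Mir455 therefore gave at most 1 arm above it.

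miR-204-5p was the most even of the tested members. Its values were 10.54 in BAT 12, 10.41 in BAT 15 and 9.71 in BAT 20. SAT 14 had 10.38, SAT 19 had 10.61 and SAT 20 had 10.13, and VAT 14 had 10.23, VAT 17 had 10.29 and VAT 20 had 10.13. The depots overlapped in all comparisons, and BAT 20 was the lowest library. Over all 9 libraries the range was 0.89, and 14 of the 343 tested miRNAs had a smaller range, against a median range of 2.87. The difference in VAT/BAT was -0.01 (interval -0.70 to 0.69, limma adjusted p = 0.988). It was 0.15 in SAT/BAT (interval -0.57 to 0.87, limma adjusted p = 0.694) and -0.16 in VAT/SAT (interval -0.54 to 0.23, adjusted p = 0.514). The intervals reach 0.70 in size for VAT/BAT and 0.87 for SAT/BAT.

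The closest relative of miR-204-5p is miR-211-5p, which differs from it at 1 of 22 bases, written A17U when counted from the 5′ end with the base of miR-204-5p first.
miR-204-5p: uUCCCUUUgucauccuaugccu
miR-211-5p: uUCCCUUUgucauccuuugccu
miR-211-5p was at 6.33 in SAT 20, 4.08 in VAT 17 and the lowest value in the other 7 libraries. With 1 base between them, some reads of one may have been counted for the other. The sum of both, after the lowest value was taken off miR-211-5p, was 10.22 in SAT 20, against 10.13 for miR-204-5p alone, and the other 8 libraries moved by less.

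Differences between 2 members inside a library are unchanged by a shift of that library's log2 values, although not by normalization of ranks. miR-328-3p exceeded miR-34a-5p by 4.55, 4.43 and 5.85 (log2) in BAT 12, BAT 15 and BAT 20. In SAT it did so by 0.98, 0.77 and 1.55, and in VAT by 0.36, 0.49 and 0.35. miR-455-3p was above miR-34a-5p by 3.84 to 4.03 in the BAT libraries and below it in the 6 white fat libraries, by values from -2.81 to -0.79. So the promoter miR-455-3p and the brake miR-34a-5p changed places between BAT and the white depots in every library, while miR-328-3p remained above miR-34a-5p throughout. The difference between miR-455-3p and miR-34a-5p had an SD of 0.09 (n = 3) in BAT, where both were lowest in BAT 20, against 0.71 in SAT and 1.04 in VAT. Levels of different miRNAs are compared here on the deposited scale, on which ligation and amplification bias of each sequence is not removed.

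The number 20 stands in a title of each depot, and 3 of the 4 tested members, miR-455-3p, miR-34a-5p and miR-204-5p, had their lowest value of each depot in that library. For miR-328-3p this was so in VAT, whereas in BAT and SAT library 20 was the highest. Of the 343 tested miRNAs, 21 (6.12%) were lowest in library 20 of all 3 depots and 9 (2.62%) were highest. Whether the number marks a mouse, a batch or neither is not stated.

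Other miRNAs with a reported part in browning showed both directions. Of 12 reported to promote browning or brown fat, all of which were tested, 6 were lower and 2 higher in VAT than in BAT, against 26.8% and 39.4% of all tested miRNAs. The 6 were miR-193b-3p, miR-193b-5p, miR-378a-3p, miR-378a-5p, miR-30c-5p and miR-129-5p, and the 2 were miR-196a-5p and miR-26a-5p. Both arms of miR-193b and of miR-378a are among the 6, which are therefore not independent. miR-193b-3p and both arms of miR-378a also served above as brown fat markers. The list was chosen with earlier results of these data known, and the paper names miR-193b-5p and miR-129-5p among its top differences. Of the members, it also reports miR-455 and miR-34a-5p as different in VAT/BAT, and its quantitative PCR gave miR-455-3p the same direction. In SAT/BAT the same 8 of the 12 miRNAs passed in the same directions. miR-196a-5p was at the lowest value in all BAT libraries, and miR-193b-5p and miR-129-5p were so in all SAT libraries. Their calls in comparisons with those depots are differences from the lowest value. With the order of the libraries as a replicate block, 2 were lower and 0 higher in VAT/BAT, and 3 lower and 1 higher in SAT/BAT. Among the miRNAs of higher mean, 4 of 10 fitted were lower in each. The median log2 difference of the 12 was -1.17 for VAT/BAT and -2.09 for SAT/BAT, against 0.40 and 0.26 over all tested miRNAs. miR-193b-3p, which acts in brown adipocyte differentiation, had log2 differences of -3.61 in VAT/BAT (limma adjusted p = 0.000865) and -3.44 in SAT/BAT (limma adjusted p = 0.00463). miR-378a-3p, whose precursor lies in the coactivator gene Ppargc1b, had differences of -2.32 (adjusted p = 0.00556) and -3.16 (adjusted p = 0.00555).

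miR-196a-5p, a reported promoter of browning in white fat that represses Hoxc8, was at the lowest value in the 3 BAT libraries and at 10.93, 10.74 and 10.53 in SAT. In VAT it was 3.96 in VAT 14, 9.57 in VAT 17 and 9.16 in VAT 20. This promoter thus went against the direction of miR-455-3p and miR-328-3p, and within VAT one library stood far below the other ones. miR-196a-5p passed the filter only through SAT and VAT, so its calls against BAT are not taken as support. Its VAT/BAT call (limma, adjusted p = 0.0409) was lost without BAT 12, BAT 15, BAT 20, VAT 17 or VAT 20. Relative to miR-191-5p it was lost too, and 1 of the 12 was then higher and 6 were lower. In VAT/SAT 1 of the 12 passed, miR-378a-3p, which was higher in VAT, and it did not pass under either alternative scaling.

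Of 10 other miRNAs reported to restrain browning, miR-155-5p and miR-494-3p were at the lowest value in all 9 libraries and 8 were tested. Of the 8, 4 were higher than BAT in VAT and none was lower, against 39.4% and 26.8% of all tested miRNAs. They were miR-27a-3p and miR-27b-3p, which act on Prdm16 and Pparg, miR-93-5p and let-7i-5p. Their log2 differences in VAT/BAT were 1.08, 1.35, 1.62 and 2.41, with adjusted p (limma) of 0.0212, 0.00242, 0.00279 and 0.00556. The same 4 were higher in SAT/BAT, by 1.11, 0.45, 1.88 and 1.95, of which 1 passed relative to miR-191-5p and 3 with a common median. With any single library left out, 1 or 2 of the 8 were higher in SAT/BAT and, without BAT 12, 2 were lower. Without BAT 20, 1 of the 8 was lower in VAT/BAT. With the order of the libraries as a replicate block, 0 of the 8 were higher in VAT/BAT and 0 in SAT/BAT. When no filter was used, 2 were higher in VAT/BAT and 1 in SAT/BAT. Without BAT 15, BAT 20 and VAT 20, 2 of the 8 were higher in VAT/BAT, and without SAT 14 and SAT 20, 0 in SAT/BAT. miR-27a-3p and miR-27b-3p, like let-7i-5p and its family, differ from near relatives by few bases, so the sharing of reads could affect their values. The median of the 8 was 0.51 for VAT/BAT and 0.06 for SAT/BAT, against 0.40 and 0.26 over all tested miRNAs. miR-133a-3p and miR-133b-3p are on this list and are also muscle miRNAs, and they had intervals from -11.52 to 4.54 in the comparisons with BAT. In VAT/SAT 1 of the 8 passed, miR-27b-3p, and it did not relative to miR-191-5p.

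**Figure D4:**
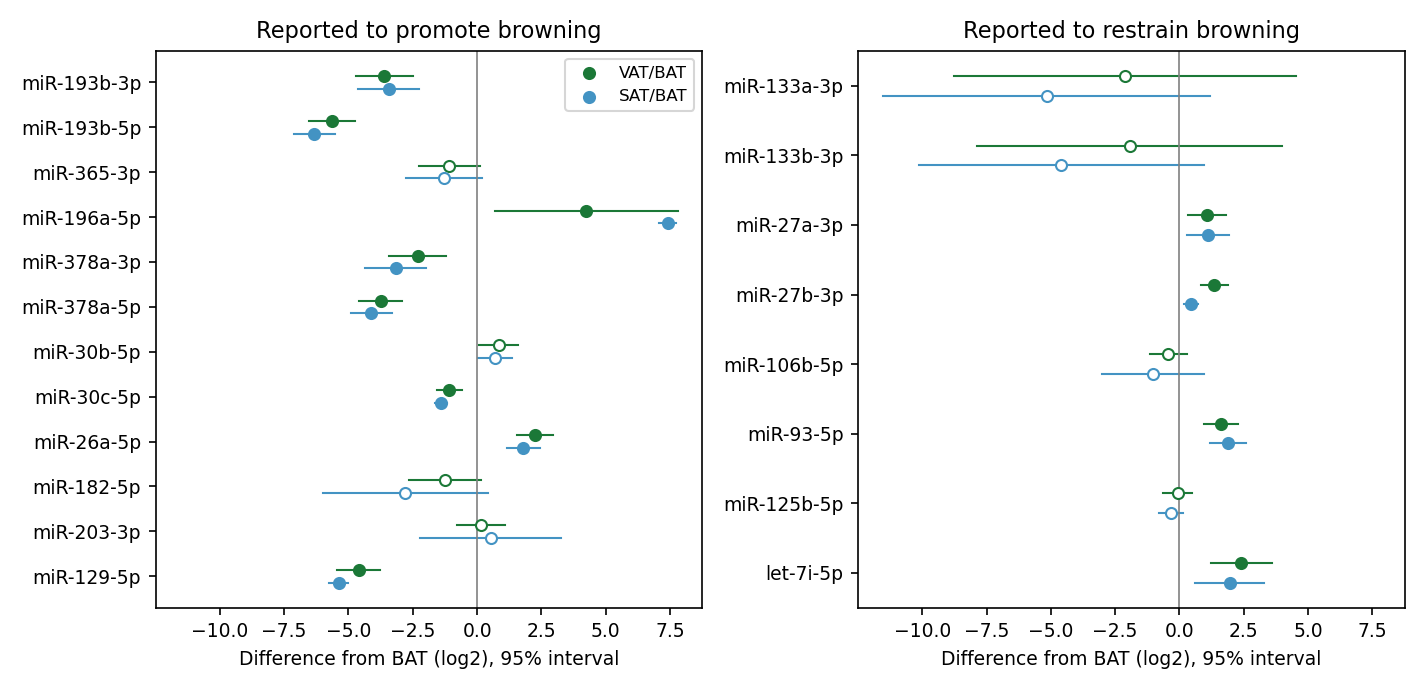
Difference from BAT (log2) with its 95% interval for 12 miRNAs reported to promote browning (left) and 8 tested miRNAs reported to restrain it (right), in VAT/BAT and SAT/BAT. Filled points passed an adjusted p of 0.05 in limma. On the left 6 miRNAs lie below 0 and 2 above it with filled points, and on the right the 4 with filled points lie above 0.

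Markers of other cell types were not even between the depots. The summed level of 4 muscle miRNAs was 10.10 in BAT 12, 17.21 in BAT 15 and 18.68 in BAT 20, 9.85 to 10.79 in SAT and 9.85, 12.59 and 17.21 in VAT 14, VAT 17 and VAT 20. Most of it was miR-133a-3p. None of the 3 tested muscle miRNAs passed in any comparison by limma, and the libraries of BAT and VAT differed more from each other than the depots did. miR-455-3p and miR-328-3p were as high in BAT 12, which had little muscle signal, as in BAT 15. For miR-34a-5p, which was lowest in BAT 20, the VAT/BAT difference without BAT 20 and VAT 20 was 0.98 (limma adjusted p = 0.0146). That fit kept BAT 15 and VAT 17, with muscle sums of 17.21 and 12.59. Without BAT 15, BAT 20 and VAT 20, which leaves BAT 12 alone, the differences of miR-34a-5p were 0.99 in VAT/BAT and 0.97 in SAT/BAT. The part of muscle in the differences of the members was not tested.

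The 6 epithelial miRNAs were all at the lowest value in BAT and summed to 5.60 to 14.35 in SAT and 4.07 to 10.23 in VAT. Neither of the 2 tested passed in a comparison. The 6 leukocyte miRNAs summed to 14.31 to 14.75 in BAT, 13.70 to 16.79 in SAT and 13.03 to 14.33 in VAT. Of 5 tested, 4 passed as higher and 1 as lower in VAT/BAT, and 1 as higher in SAT/BAT. miR-142-3p and miR-223-3p, the latter being the call in SAT/BAT, were at the lowest value in all BAT libraries. They passed the filter through the white depots, so their calls are differences from the lowest value and are not taken as support. The sum was mostly miR-150-5p, whose VAT/BAT difference was negative (log2, -1.41). For miR-142-3p, miR-142-5p, miR-146a-5p and miR-223-3p that difference was 1.16, 4.01, 3.19 and 6.76, so the sum hides their higher values in VAT. The 4 red cell miRNAs summed to 17.68 in every BAT library, 14.86 to 15.28 in SAT and 14.94 to 15.87 in VAT. Most of this sum was miR-486-5p, which was lower in VAT than in BAT (log2 difference -2.49), whereas miR-451a was higher (2.21). No test of miR-144-5p is given, because it was above the lowest value only in VAT. Both tested endothelial miRNAs were higher than BAT in VAT and in SAT, but they are the 2 arms of miR-126 and not independent. Relative to miR-191-5p, 1 of them passed in SAT/BAT. The 3 neuronal miRNAs were not tested because they were above the lowest value in too few libraries. Of 5 miRNAs that mark trunk position, 3 were higher than BAT in VAT and 4 in SAT. Among these, miR-196a-5p was at the lowest value in all BAT libraries. By comparison, 39.4% of all tested miRNAs were higher and 26.8% lower in VAT/BAT, while 22.4% were higher and 18.1% lower in SAT/BAT. The part of these cells in the depot differences of miR-34a-5p, miR-328-3p and miR-455-3p was not tested.

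**Figure D5:**
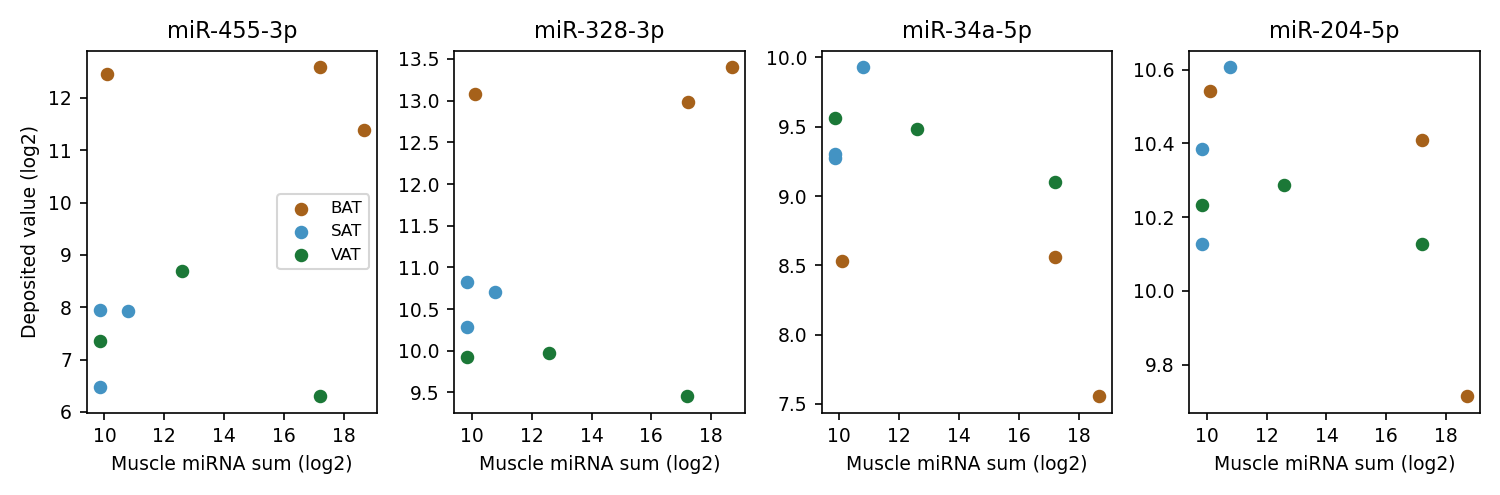
Deposited value (log2) of the 4 tested members against the summed level (log2) of 4 muscle miRNAs, with 1 point per library colored by depot and a separate vertical scale in each panel. BAT 12, at a muscle level of 10.10, has miR-455-3p and miR-328-3p values of 12.45 and 13.09, close to those of BAT 15, and BAT 20, at 18.68, has the lowest miR-34a-5p and miR-204-5p of the 9 libraries.

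For each tested member, the 2 tested miRNAs with the most similar profile were found as those with the smallest root mean square difference of the centered log2 values over the 9 libraries. For miR-455-3p they were miR-6366 (0.67) and miR-129-5p (0.68), and for miR-328-3p miR-1843b-3p (0.23) and miR-423-5p (0.33). miR-129-5p is itself among the reported promoters, with values of 8.53 to 8.98 in BAT, the lowest value in the 3 SAT libraries and 3.52 to 4.64 in VAT. For miR-34a-5p they were miR-326-3p (0.16) and miR-25-3p (0.24), the carrier of the miR-32-5p seed that was higher in the white depots. For miR-204-5p they were miR-140-3p (0.20) and miR-339-5p (0.20). The root mean square difference grows with the spread of a miRNA, and the range over the 9 libraries was 6.29 for miR-455-3p and 0.89 for miR-204-5p. It therefore cannot tell whether the profile of miR-455-3p was less shared than those of the other 3 members.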

How the data were processed

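The authors prepared small RNA libraries, mapped reads to miRBase precursors, kept mature miRNAs, divided multiple matches in proportion, scaled to usable reads and added 40 counts. The genome build is mm10 in the submitters' processing notes. The deposited values are log2 values with a lowest value of 10 before log2, which differs from the stated 40 and affects folds near it, and the libraries share values at equal ranks, as quantile normalization leaves them. The sources name different Illumina instruments.

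Values were used as deposited. The 343 miRNAs that exceeded the lowest value in 3 or more of the 9 libraries were tested with limma 3.58.1 (R 4.3.3), on the 6 libraries of each pair of depots, two-sided, with Benjamini-Hochberg adjustment and a threshold of 0.05. The test was tried on simulated data. The paper calls the libraries of a depot biological replicates without tying them to mice, and p-values measure the spread between them. Named are the members, their opposite arms, miRNAs with the same bases 2 to 8, the listed regulators and markers, and the 2 nearest profiles of each tested member. The members and lists were chosen with earlier results of these data known. Alternatives changed the offset, filter, scaling, libraries, replicate block and moderation. Those without groups of libraries with muscle, epithelial or leukocyte miRNAs were added after seeing the data. Sequences come from RefSeq (GRCm38.p6), which matched 1001 of 1251 miRNAs, and loci from GENCODE M21.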

Additional observations from a re-analysis of the deposited data

How the results depend on the processing

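Of the 4 tested members, 3 passed in VAT/BAT, 3 in SAT/BAT and 0 in VAT/SAT. Over 18 alternatives the count in VAT/BAT was 2 or 3, and no called difference changed sign. In SAT/BAT it was 1 without BAT 15, BAT 20 and VAT 20, and 1 without SAT 14 and SAT 20. In both settings a depot is left with 1 library, which is assumed to vary like the other depot. In VAT/SAT it was 1 with the 171 miRNAs of higher mean. With each library left out in turn the count was 2 to 3 in VAT/BAT, always 2 in SAT/BAT and always 0 in VAT/SAT.

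The numbers in the titles are shared by SAT and VAT (14 and 20) and, for 20, by BAT. Deviations of same-numbered libraries from their depot means correlated at -0.0524 and -0.139 between SAT and VAT and at 0.107 and 0.27 with BAT 20. With 3 libraries per depot these correlations cannot decide whether a number marks a mouse. The numbers were not taken as pairs because what they mark is not stated. With them as a replicate block (within-block correlation 0.0379) the counts were 3, 3 and 0. With the order of the libraries as a replicate block they were 2, 2 and 0, miR-34a-5p being lost in both comparisons with BAT, and 52, 28 and 0 of all tested miRNAs passed in VAT/BAT, SAT/BAT and VAT/SAT, against 227, 139 and 55.

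Without the filter 128, 74 and 4 of all miRNAs passed. In VAT/SAT 2 passed relative to miR-191-5p, 13 without moderation, 0 without SAT 19, 12 without SAT 20, 23 without VAT 14, 5 without VAT 20 and 7 without SAT 14 and SAT 20. In VAT/BAT 119 passed among the miRNAs of higher mean and 130 without BAT 15, BAT 20 and VAT 20, and in SAT/BAT 57 without SAT 14 and SAT 20. Scaling to miR-191-5p moved SAT/BAT by -0.17 and VAT/SAT by 0.17. The causes were not tested. The values carry no read counts, so what depth limits cannot be given.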

Other observations

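Other products of the miR-34b/c precursors, chosen after their values were seen, were near the lowest value. miR-34c-3p was at it in the 3 BAT and 3 SAT libraries and at 3.85, 4.57 and 4.26 in VAT 14, VAT 17 and VAT 20. miR-34b-3p was at the lowest value in the 3 BAT libraries, SAT 19 and SAT 20, at 4.55 in SAT 14 and at 4.10, 4.85 and 4.85 in VAT. No test is given, because these miRNAs passed the filter mainly through VAT, where 323 to 349 miRNAs were above the lowest value against 255 to 273 in BAT.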
